A study of Homo sapiens with 9 samples.

Results

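The class I antigen presentation genes HLA-B, HLA-C, HLA-E, B2M, TAP1, TAP2, TAPBP, PSMB8 and PSMB9 were followed in RNA-Seq counts of MDA-MB-231 cells treated with the copper chelator TEPA. These 9 genes were taken as a list of the main steps of the pathway and read by symbol from the 59453 gene names counted. The rule used no measured value, but the list was chosen with earlier results of these data known. All 9 were among the 16556 genes that passed the filter on low counts, with between 727 and 33096 counts each in every library. MDA-MB-231 is an established human triple-negative breast cancer line. It was grown in DMEM with 10% FBS and either left untreated or given TEPA for 8 h or for 24 h, with 3 libraries in each of the 3 groups. The TEPA concentration is 8 mM in the sample labels and 4 mM in the study's RNA sequencing methods. The labels name 8 h or 24 h for each treated sample, but their treatment protocol gives 24 h alone, so the 8 h exposure rests on the sample labels and the study's description. The labels give no vehicle for the untreated cells and no separate untreated cells for each time, so treatment and time in culture cannot be told apart.

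Class I molecules show peptides from a cell's own proteins to cytotoxic T cells and natural killer cells. The proteasome cuts the proteins, and in the immunoproteasome the catalytic subunits PSMB8 and PSMB9 take the places of PSMB5 and PSMB6. The TAP1 and TAP2 chains form the transporter that moves peptides into the endoplasmic reticulum, where tapasin, the product of TAPBP, holds empty class I molecules beside it. HLA-B, HLA-C and HLA-E are class I heavy chains, and B2M encodes their shared light chain, beta-2-microglobulin. HLA-E mainly carries leader peptides of other class I chains and is read by the CD94/NKG2A receptor of natural killer cells. Many of these genes are known targets of interferon-gamma, through IRF1, and of the transactivator NLRC5, and some are also targets of NF-kB.

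In these data the 9 genes did not move as a block. At 8 h 6 were lower than in untreated cells (4 without untreated replicate 1 or without TEPA 8 h replicate 1) and TAP2 alone was higher, where 24.5% of all genes tested were lower and 25.2% higher. By 24 h 6 were higher (25.7% of all genes, with 26.8% lower), with TAP1 and TAP2 up 1.46-fold and 1.49-fold, while HLA-E alone was lower. No member changed by as much as 2-fold against untreated cells, and the largest difference between times was that of PSMB9, which was 1.85-fold higher at 24 h than at 8 h (log2 fold change 0.89 ± 0.07, SE; adjusted p = 7.9e-08, edgeR quasi-likelihood test with Benjamini-Hochberg adjustment, the source of all adjusted p-values here).

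B2M lies on chromosome 15 and the other 8 genes lie in the major histocompatibility complex on chromosome 6 (GRCh38, GENCODE 44). HLA-B occupies chr6:31353872-31367067 and HLA-C chr6:31268749-31272130, both on the minus strand, and HLA-E chr6:30489509-30494194 on the plus strand. TAP2 (chr6:32821833-32838739), PSMB8 (chr6:32840717-32844679), TAP1 (chr6:32845209-32853816) and PSMB9 (chr6:32844136-32859851) form a cluster of 38019 bases, in which PSMB9 alone is on the plus strand. The RefSeq start sites of TAP1 and PSMB9 are 488 bases apart and face away from each other. TAPBP is at chr6:33299694-33314284, on the minus strand, and B2M is at chr15:44711358-44718851, on the plus strand. The antisense gene PSMB8-AS1 overlaps PSMB8 and TAP1 on the opposite strand and PSMB9 on its own strand, and the authors' counting used strand.

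The bases upstream of 5 members are printed because they hold the motifs most often named for class I genes and because these members behaved differently: HLA-B and B2M are the main heavy chain and the light chain, TAP1 and TAPBP fell at 8 h and rose by 24 h, and TAP2 rose at both times. Each is the 250 bases before the RefSeq start site in GRCh38.p14, 5′ to 3′ on the gene's own strand. Capitals mark the interferon response element core (GAAANNGAA) and the kappa B consensus on either strand. These are reference sequences and not those of the alleles that MDA-MB-231 carries.
HLA-B (chr6:31357180-31357429, minus strand): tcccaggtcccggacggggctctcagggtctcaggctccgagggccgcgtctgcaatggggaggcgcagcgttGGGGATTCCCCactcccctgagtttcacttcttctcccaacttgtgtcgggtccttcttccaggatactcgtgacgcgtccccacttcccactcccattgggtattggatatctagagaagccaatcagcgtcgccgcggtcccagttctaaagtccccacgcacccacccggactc
B2M (chr15:44711267-44711516, plus strand): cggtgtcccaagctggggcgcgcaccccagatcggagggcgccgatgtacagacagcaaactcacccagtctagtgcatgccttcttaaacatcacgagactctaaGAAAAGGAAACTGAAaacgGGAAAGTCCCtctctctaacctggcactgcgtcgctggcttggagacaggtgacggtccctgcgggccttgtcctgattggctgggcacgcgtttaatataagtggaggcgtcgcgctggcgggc
TAP1 (chr6:32853705-32853954, minus strand): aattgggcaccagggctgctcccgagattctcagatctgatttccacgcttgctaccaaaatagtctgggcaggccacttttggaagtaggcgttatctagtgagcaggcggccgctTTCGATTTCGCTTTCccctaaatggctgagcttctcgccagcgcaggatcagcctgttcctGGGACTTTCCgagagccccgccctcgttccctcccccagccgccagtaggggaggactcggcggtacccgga
TAP2 (chr6:32838740-32838989, minus strand): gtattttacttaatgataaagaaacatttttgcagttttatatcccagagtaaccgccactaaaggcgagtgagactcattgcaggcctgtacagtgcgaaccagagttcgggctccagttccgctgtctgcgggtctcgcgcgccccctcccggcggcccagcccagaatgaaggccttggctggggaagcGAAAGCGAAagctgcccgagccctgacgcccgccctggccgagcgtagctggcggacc
TAPBP (chr6:33314079-33314328, minus strand): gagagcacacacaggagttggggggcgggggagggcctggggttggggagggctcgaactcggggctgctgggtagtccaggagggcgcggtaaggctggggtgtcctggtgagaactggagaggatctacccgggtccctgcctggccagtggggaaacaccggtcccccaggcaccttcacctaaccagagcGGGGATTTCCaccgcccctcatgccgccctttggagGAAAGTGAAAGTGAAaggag

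The first base of the interferon core was 144 and 138 bases before the start site in B2M, 133 and 127 in TAP1, 58 in TAP2, and 20 and 14 in TAPBP, so that the paired copies overlapped by a few bases. The kappa B consensus began 177 and 176 bases before the start site in HLA-B, 125 in B2M, 72 in TAP1 and 56 in TAPBP, and was not in the TAP2 window. Windows of 250 bases before and 50 after the start site were present for 8 of the 9 genes, 10 windows in all, and HLA-E had none. The interferon core was in the windows of 5 of these 8 genes, B2M, TAP1, TAP2, TAPBP and PSMB8, and in 8.11% of all 35116 windows. The kappa B consensus was in those of HLA-B, HLA-C, B2M, TAP1 and TAPBP, against 11.3% of all windows. Only exact matches to each motif were counted, so a gene without a match may hold a related form of the element. The TAP1 interferon core lies between the start sites of TAP1 and PSMB9 but outside the PSMB9 window. The Y box (CCAAT) was found for 5 of the 8 genes (34.6% of all windows), the X2 box (TGACG) for 6 (24.6%) and the GC box (GGGCGG) for 6 (45.0%), each on both strands. A gene counted if any of its windows held the motif, and TAP1 and PSMB8 had a second window. The percentages are of single windows, so the shares of genes and of windows are not strictly alike. The interferon core was found for TAP2, which rose at 8 h, and for B2M, TAP1, TAPBP and PSMB8, which fell. HLA-C and PSMB9 also fell and had no match to it. The part of these motifs in the changes was not tested.

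Total counts ran from 34633755 to 49342659 per library. The 4 line markers VIM, CD44, KRT8 and KRT18 were present at 246 CPM (counts per 1000000 of the TMM-scaled library size) or more in every library, and EPCAM was low, at 0.834 to 1.86 CPM. Of the 4 markers listed as absent from the line, PGR had 0 counts and ESR1 had 2 to 9 counts, whereas ERBB2 was read at 51.9 to 87.1 CPM. The last of them, CDH1, had 10 to 144 counts (0.25 to 3.89 CPM). It was 5.02-fold higher at 24 h than in untreated cells (adjusted p = 1.1e-06). CD3E, CD3D, MS4A1, NKG7 and FCGR3A, markers of T, B and natural killer cells, had 0 counts in all 9 libraries, and PTPRC, the pan-leukocyte marker, had 0 to 5. However, CD8A, also a T cell marker, had 35 to 65 counts (0.811 to 1.52 CPM), ITGAX had 15 to 25 and CD68 had 3 to 15. The 14 immune cell markers summed to 17.5 to 21.7 CPM in untreated cells, 9.97 to 10.8 at 8 h and 22.2 to 23.7 at 24 h. CSF1R (6.87 to 17.1 CPM) and CD14 (0.601 to 5.04 CPM) made up most of this sum, and the other 12 summed to 1.95 to 2.48, 2.04 to 2.17 and 1.69 to 1.88 CPM. The part of these markers in the class I values was not tested. Untreated replicate 1 stood apart for these genes, with the highest CPM of its group for 8 of the 9 and the lowest for TAP2, and with a median deviation of 0.14 on the log2 scale from the group mean. Calls named here that are lost or gained without it, and counts of calls that change, are given both ways. Statements on overlap between groups use all libraries. The labels do not say whether the 3 libraries of a group came from separate cultures, so the p-values measure the spread between these libraries, which may be technical. In a bulk sample, fewer cells with a transcript and less of it per cell cannot be told apart.

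The 9 genes together took 0.161% to 0.1905% of all counts in untreated cells, 0.1519% to 0.1532% at 8 h and 0.2035% to 0.208% at 24 h, and these ranges did not overlap. On a scale of CPM (TMM-scaled) per kilobase of the canonical transcript, the order of levels in untreated cells was B2M (672), HLA-B (200), HLA-C (120), TAPBP (76.7), PSMB8 (56.5), HLA-E (42.7), TAP1 (38.6), PSMB9 (29.5) and TAP2 (11.9). Neighbours in this order did not overlap, except HLA-E and TAP1. The order was the same at 8 h. At 24 h TAP1 (56.3) stood above HLA-E (34.9), and PSMB9 (38.3) overlapped with HLA-E, while the first 5 places and the last did not change. TAP2 was the lowest of the 9 per kilobase in every group. However, 34.7% of the 100-base windows of its canonical transcript also occur in another gene, which may make its counts too low.

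**Figure D1:**
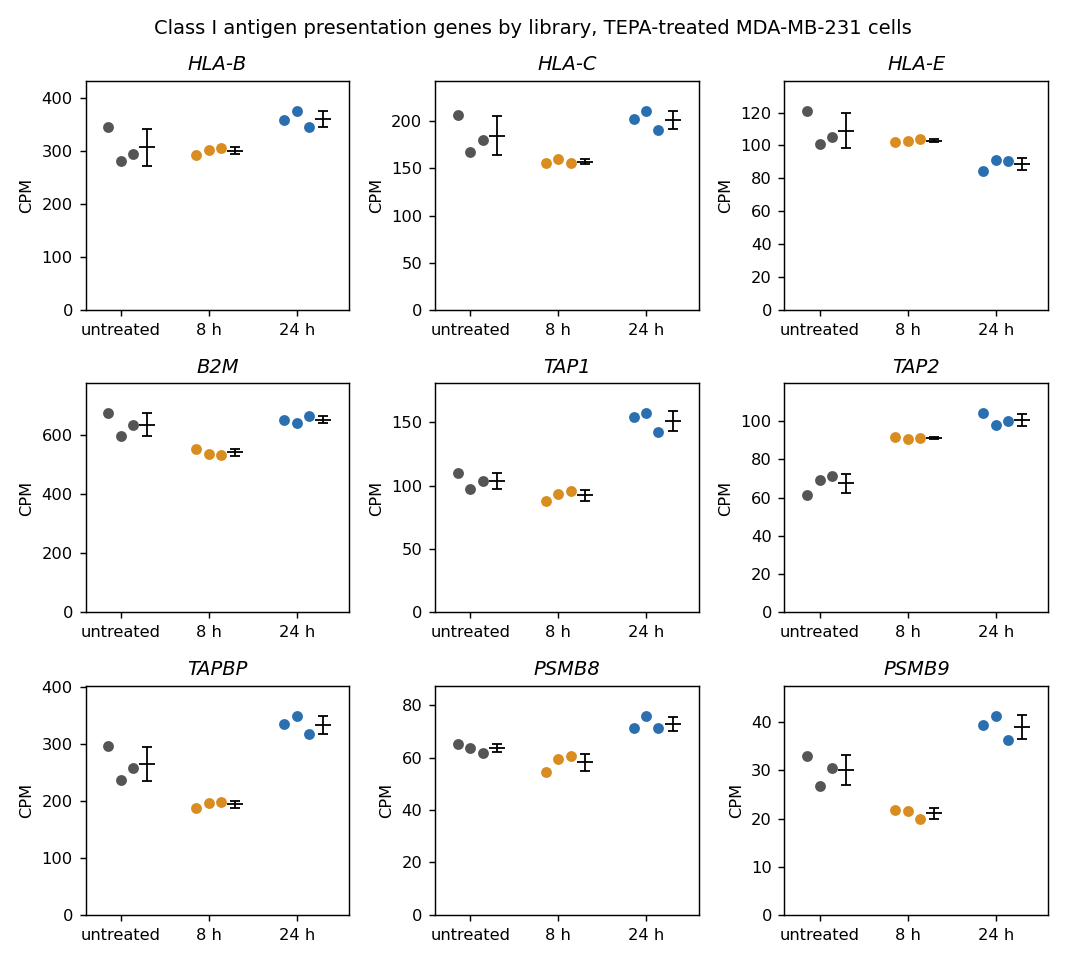
CPM (TMM-scaled, linear axes from 0) of the 9 genes in each of the 9 libraries, with 1 point per library and the mean ± SD (n = 3) of each group beside it. TAP2 is higher in all treated libraries (90.6 to 104 CPM) than in the untreated ones (61.6 to 71.1 CPM), HLA-E is lowest at 24 h, and TAPBP and PSMB9 fall at 8 h and exceed the untreated libraries at 24 h.

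Among the heavy chains, HLA-B was measured at 346, 281 and 294 CPM in the untreated libraries, at 293, 302 and 306 at 8 h, and at 358, 376 and 346 at 24 h. The untreated and 8 h libraries overlapped (307 ± 34.1 and 300 ± 6.74 CPM, mean ± SD, n = 3), with a log2 fold change of -0.03 ± 0.06 (SE; adjusted p = 0.68). At 24 h HLA-B was 1.17-fold higher than in untreated cells (360 ± 15.4 CPM, adjusted p = 0.004), although the lowest 24 h library lay just above untreated replicate 1. Without untreated replicate 1 the 8 h value was 0.06 and the 24 h value 0.32 on the log2 scale (adjusted p = 0.24 and 2.3e-06).

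HLA-C, the heavy chain most read by killer-cell immunoglobulin-like receptors, was at 207, 167 and 180 CPM in untreated cells, 156, 160 and 156 at 8 h, and 202, 211 and 191 at 24 h. All 8 h libraries were below all untreated ones, and the 24 h libraries overlapped with the untreated ones through untreated replicate 1 alone. HLA-C fell by 0.23 on the log2 scale at 8 h (SE 0.06, adjusted p = 0.0054), and by 0.14 (adjusted p = 0.015) without untreated replicate 1. At 24 h the difference from untreated cells was 0.13 ± 0.06 (SE) and did not pass (adjusted p = 0.086), but it was 0.22 (adjusted p = 5e-04) without untreated replicate 1 and 0.17 (adjusted p = 0.047) without TEPA 24 h replicate 3. From 8 h to 24 h HLA-C rose 1.28-fold (adjusted p = 0.00012).

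HLA-E went the other way. Its values were 121, 101 and 105 CPM in untreated cells, 102, 103 and 104 at 8 h, and 84.6, 91.0 and 90.8 at 24 h, so that every 24 h library was below every other library. The 8 h difference of -0.08 ± 0.06 (SE) on the log2 scale did not pass (adjusted p = 0.26), but was -0.14 (adjusted p = 0.041) without untreated replicate 2 and 0.00 without untreated replicate 1. At 24 h HLA-E had fallen by 0.29 on the log2 scale against untreated cells (SE 0.06, adjusted p = 0.00035) and by 0.21 against 8 h (adjusted p = 0.0039). It was the only member lower in either comparison of 24 h cells.

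B2M, the light chain, was the most abundant of the 9, at 672, 596 and 633 CPM in untreated cells, 552, 535 and 533 at 8 h, and 649, 640 and 664 at 24 h. The 8 h libraries were below all others. The 24 h libraries lay within the untreated range, but only untreated replicate 1 (672 CPM) was above them, and the other untreated libraries were below them. B2M fell by 0.23 on the log2 scale at 8 h (SE 0.04, adjusted p = 3e-04) and rose by 0.27 from 8 h to 24 h (SE 0.04, adjusted p = 5.4e-05). Its 24 h difference from untreated cells was 0.04 ± 0.04 (SE, adjusted p = 0.46), which was not detectable beyond the spread between libraries.

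The transporter chains differed at 8 h. TAP1 was at 110, 97.5 and 104 CPM in untreated cells, 87.5, 93.6 and 96.0 at 8 h, and 154, 157 and 142 at 24 h. TAP2 was at 61.6, 69.4 and 71.1 CPM in untreated cells, 91.9, 90.6 and 91.1 at 8 h, and 104, 97.8 and 100 at 24 h. At 8 h TAP1 was below and TAP2 above all untreated libraries, and at 24 h both were above all other libraries. TAP1 fell by 0.17 on the log2 scale at 8 h (SE 0.05, adjusted p = 0.014), a change that missed the threshold without untreated replicate 1 (-0.12, adjusted p = 0.052) or without TEPA 8 h replicate 1 (-0.14, adjusted p = 0.066). TAP2 rose 1.35-fold at 8 h (log2 fold change 0.44 ± 0.05, SE; adjusted p = 2.7e-06). At 24 h TAP1 was 1.46-fold (adjusted p = 3.5e-07) and TAP2 1.49-fold (adjusted p = 9.5e-08) above untreated cells. TAP1 rose 1.64-fold from 8 h to 24 h (adjusted p = 2e-08) and TAP2 by 0.14 on the log2 scale (adjusted p = 0.022). This last change did not pass without TEPA 8 h replicate 2 (adjusted p = 0.059), TEPA 8 h replicate 3 (adjusted p = 0.051) or TEPA 24 h replicate 1 (adjusted p = 0.1). In GENCODE 44 a second gene overlaps TAP2 on the same strand, and 34.7% of the 100-base windows of the canonical TAP2 transcript also occur in another gene, so its counts are less certain than those of the other members. For the other 8 genes at most 0.612% of windows did.

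TAPBP, which encodes tapasin, was at 297, 238 and 259 CPM in untreated cells, 188, 196 and 199 at 8 h, and 335, 350 and 318 at 24 h. The 3 groups did not overlap. It fell by 0.44 on the log2 scale at 8 h (SE 0.06, adjusted p = 2.8e-05) and at 24 h was 1.27-fold above untreated cells (log2 fold change 0.34 ± 0.06, SE; adjusted p = 0.00025). From 8 h to 24 h it rose 1.72-fold (adjusted p = 5.2e-08).

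PSMB8, the immunoproteasome subunit that replaces PSMB5, was at 65.1, 63.6 and 61.9 CPM in untreated cells, 54.5, 59.6 and 60.4 at 8 h, and 71.3, 75.9 and 71.1 at 24 h. PSMB9, which replaces PSMB6, was at 32.9, 26.7 and 30.5 CPM in untreated cells, 21.8, 21.6 and 19.8 at 8 h, and 39.4, 41.3 and 36.3 at 24 h. For both genes the 8 h libraries were the lowest and the 24 h libraries the highest, with no overlap between groups. PSMB9 fell by 0.51 on the log2 scale at 8 h (adjusted p = 4.4e-05) and was 1.30-fold above untreated cells at 24 h (adjusted p = 0.00032). PSMB8 moved less. It fell by 0.13 at 8 h (adjusted p = 0.036), and its 24 h value was 0.20 (adjusted p = 0.0022). Its 8 h change did not pass without untreated replicate 1 (-0.11, adjusted p = 0.079), without untreated replicate 2 (-0.13, adjusted p = 0.052) or without TEPA 8 h replicate 1 (-0.09, adjusted p = 0.15).

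**Figure D2:**
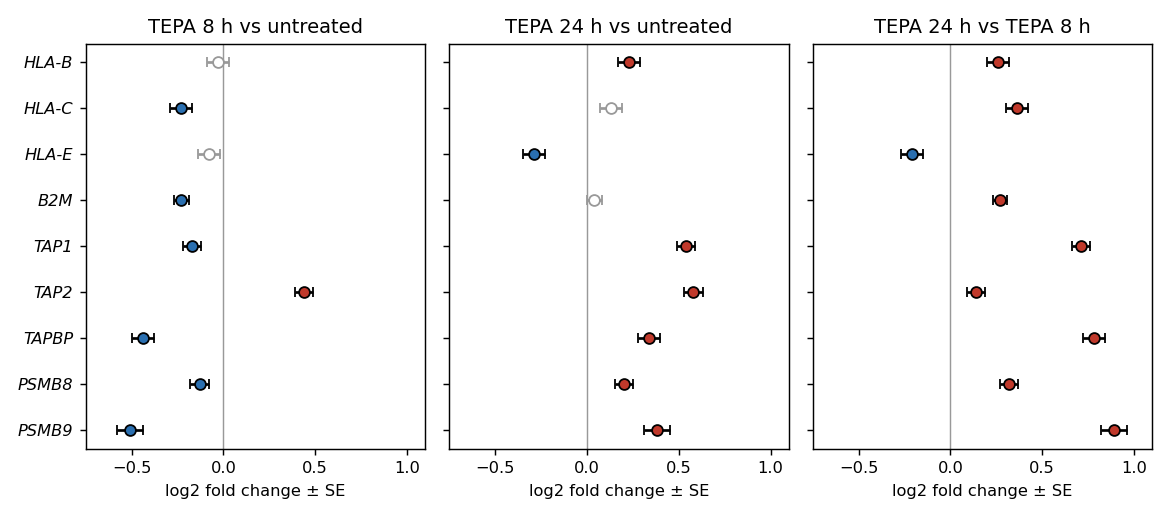
Log2 fold change ± SE (x axis, edgeR) of the 9 genes (rows) in the 3 comparisons, with red for higher, blue for lower and open grey for not passing an adjusted p of 0.05. At 8 h TAP2 is the only red point, and in both comparisons of 24 h cells HLA-E is the only blue one.

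Both times are set against the same untreated libraries, so their values are given side by side. Counted over the list, 1 member was higher and 6 were lower at 8 h, where 25.2% of all genes tested were higher and 24.5% lower. The members' median log2 fold change was -0.17, against 0.00 for all genes. The libraries of the 2 groups did not overlap for 7 of the 9, against 57.8% of all genes. Without untreated replicate 1 the counts were 1 higher and 4 lower, TAP1 and PSMB8 no longer passing, with a median of -0.12. Without TEPA 8 h replicate 1 they were also 1 and 4.

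At 24 h against untreated cells, 6 members were higher and 1 was lower, where 25.7% of all genes were higher and 26.8% lower. The median was 0.23, against 0.00 for all genes, and 7 of the 9 did not overlap (57.2% of all genes). HLA-C and B2M overlapped through untreated replicate 1 alone. Without untreated replicate 1, HLA-C joined the higher genes (7 higher, 1 lower) and the median was 0.32. From 8 h to 24 h 8 members were higher and 1 was lower, where 26% of all genes were higher and 28.8% lower, with a median of 0.32 against -0.02 for all genes. All 9 members were without overlap between these groups, as were 62% of all genes. With libraries scaled by their totals alone, the split of all genes moved to 5204 higher and 3557 lower at 24 h against untreated cells, from 4253 and 4435, and to 5504 and 3724 at 24 h against 8 h, from 4309 and 4770. Under that scaling the members were 7 higher and 1 lower at 24 h against untreated cells, with HLA-C added, and still 8 and 1 against 8 h.

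Ratios of counts within a library do not depend on the scaling. With 3 libraries against 3, the exact two-sided permutation test cannot give a p under 0.1, so none of these ratios could pass. The ratio of PSMB9 to PSMB6, its constitutive counterpart, was 0.153, 0.126 and 0.144 in untreated cells, 0.122, 0.119 and 0.111 at 8 h, and 0.271, 0.271 and 0.239 at 24 h. The 24 h libraries were well above the rest, with a log2 difference from untreated cells of 0.89 (exact p = 0.1, the smallest possible), and the 8 h libraries were below the untreated ones by 0.26 (exact p = 0.1). PSMB6 itself fell, by 0.24 at 8 h and 0.51 at 24 h on the log2 scale (adjusted p = 2.6e-05 and 8.7e-09). The ratio of PSMB8 to PSMB5 moved little, from 0.283 ± 0.00577 (SD, n = 3) in untreated cells to 0.273 ± 0.0143 at 8 h and 0.301 ± 0.0054 at 24 h. Its log2 differences were -0.05 (exact p = 0.4) and 0.09 (exact p = 0.1). PSMB5 did not pass at 8 h (-0.07, adjusted p = 0.086) and rose by 0.11 at 24 h (adjusted p = 0.015).

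The other ratios were chosen after the values were seen and are descriptions. TAP1 to TAP2 stood at 1.79, 1.41 and 1.46 in untreated cells, 0.952, 1.03 and 1.05 at 8 h, and 1.49, 1.60 and 1.42 at 24 h. The chains were thus read about equally often at 8 h only, and the 24 h and untreated libraries overlapped (log2 difference -0.04, or 0.07 without untreated replicate 1). This ratio does not correct for transcript length, and per kilobase TAP1 (34.4) was above TAP2 (16.2) at 8 h too. The TAP2 counts may be too low in both measures, because much of its transcript is shared with another gene. HLA-E to HLA-B was 0.355 ± 0.00544 (SD, n = 3) in untreated cells, 0.344 ± 0.00458 at 8 h and 0.247 ± 0.0139 at 24 h. HLA-C to HLA-B was 0.601 ± 0.00991, 0.525 ± 0.0131 and 0.560 ± 0.00663, with no overlap between groups. HLA-B to B2M was 0.483 ± 0.0268 in untreated cells and higher in all treated libraries, at 0.556 ± 0.0229 at 8 h and 0.553 ± 0.034 at 24 h. HLA-B and HLA-C are highly polymorphic, and the heavy chain genes resemble each other and pseudogenes in sequence. In the reference transcripts, 0 of the 100-base windows of HLA-B, HLA-C or HLA-E occurred in another of these 3 genes, but reads of the line's own alleles may align differently.

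**Figure D3:**
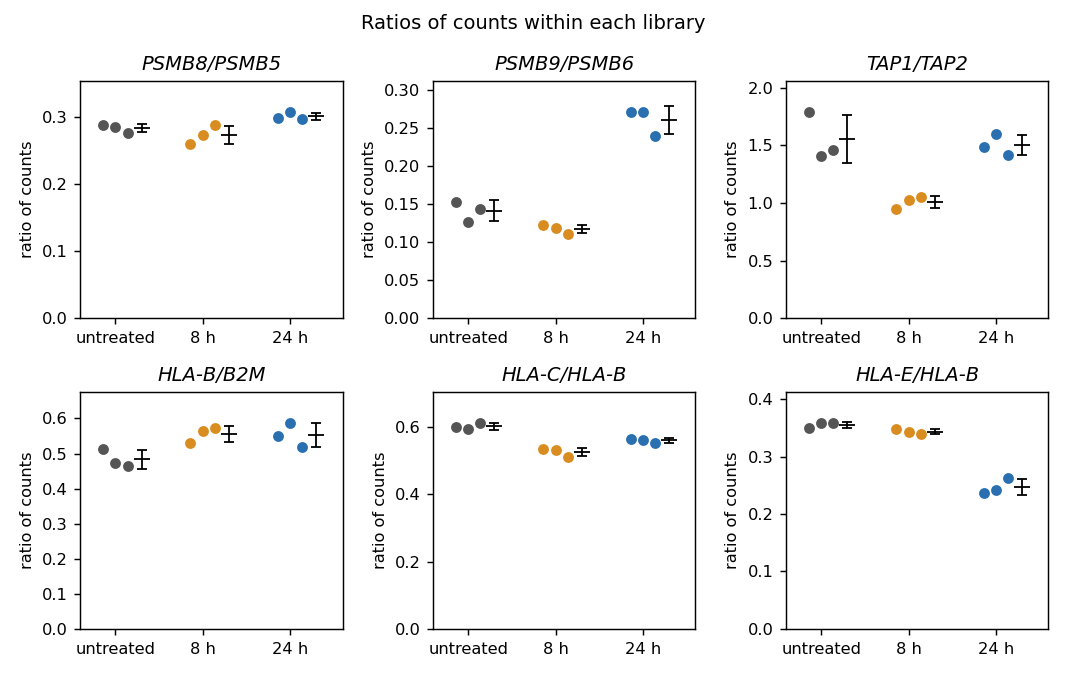
Ratios of raw counts within each library (linear axes from 0), with 1 point per library and the mean ± SD (n = 3) of each group. PSMB9/PSMB6 is highest in the 24 h libraries (0.239 to 0.271), TAP1/TAP2 is lowest in the 8 h libraries (0.952 to 1.05) and HLA-E/HLA-B is lowest in the 24 h libraries (0.236 to 0.263).

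The remaining genes of the pathway were counted in lists by role. Of all genes tested, 25.2% were higher and 24.5% lower at 8 h, and 25.7% were higher and 26.8% lower at 24 h. Where the counts of a list lie near these shares, they are not a result about that list. Of the 5 other immunoproteasome, activator and assembly genes, 4 were lower and 0 higher at 8 h, and 2 were higher and 2 lower at 24 h. PSMB10, the third immunoproteasome catalytic subunit, went from 12.4 ± 1.07 CPM (SD, n = 3) in untreated cells to 9.48 ± 0.421 at 8 h and 16.3 ± 1.65 at 24 h (log2 fold changes -0.39 and 0.40, adjusted p = 0.0018 and 0.00082). PSME1 and PSME2, which form the interferon-inducible proteasome activator, fell by 0.40 and 0.16 at 8 h (adjusted p = 4.8e-06 and 0.0045), and at 24 h PSME2 was higher by 0.23 (adjusted p = 0.00027) while PSME1 was at 0.07 (adjusted p = 0.23). PSME3, a nuclear activator, fell by 0.28 at 24 h (adjusted p = 3.9e-05). Of the 3 constitutive catalytic subunits, 1 was lower at 8 h, and 1 was higher and 2 were lower at 24 h.

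The 10 other peptide loading and trimming genes were 2 higher and 5 lower at 8 h (median -0.12) and 3 higher and 4 lower at 24 h (median -0.07). The shares of all genes were 25.2% higher and 24.5% lower at 8 h, and 25.7% and 26.8% at 24 h. ERAP1, the aminopeptidase that trims peptides in the endoplasmic reticulum, was at 97.7 ± 3.93 CPM (SD, n = 3) in untreated cells, 99.8 ± 1.68 at 8 h and 159 ± 2.8 at 24 h, a rise of 0.70 on the log2 scale by 24 h (adjusted p = 8.9e-10). TAPBPL, the tapasin-related peptide editor TAPBPR, was low, at 3.15 ± 0.313 CPM in untreated cells, and rose by 0.35 by 8 h and by 0.95 after 24 h (adjusted p = 0.018 and 2e-06). Several chaperones were lower at both times. CALR, which holds class I molecules in the loading complex, fell by 0.39 and 0.36 (adjusted p = 3.8e-07 and 6.3e-07), PDIA3, which encodes ERp57, by 0.27 and 0.19 (adjusted p = 1.8e-05 and 0.00031), and HSPA5, the general chaperone BiP, by 0.42 and 0.47 (adjusted p = 3e-07 and 5.7e-08) at 8 h and 24 h. The 7 cytosolic peptidases, among them TPP2 and LAP3, were 3 higher and 0 lower at 8 h and 2 higher and 1 lower at 24 h. Without untreated replicate 1 the 8 h count was 2 higher, LAP3 no longer passing (0.09, adjusted p = 0.089).

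Of the 10 genes listed as class I transactivators, 3 were lower and 0 higher at 8 h (median -0.05), and 3 were higher and 5 lower at 24 h (median -0.06). Among all genes, 24.5% were lower and 25.2% higher at 8 h, and 25.7% were higher and 26.8% lower at 24 h. IRF1 was at 71.4 ± 3.23 CPM (SD, n = 3) in untreated cells, 52.1 ± 2.44 at 8 h and 95.6 ± 3.21 at 24 h (log2 fold changes -0.46 and 0.42, adjusted p = 1.5e-06 and 1.7e-06). RFX5, a subunit of the RFX complex on the class I and class II promoters, took similar values, at 89.1 ± 8.51, 63.9 ± 0.259 and 120 ± 3.66 CPM (log2 fold changes -0.48 and 0.43, adjusted p = 3.8e-06 and 6.9e-06). NLRC5, the class I transactivator, was at -0.02 at 8 h (adjusted p = 0.81) and fell by 0.17 at 24 h (adjusted p = 0.037). The other RFX subunits RFXANK and RFXAP did not pass at either time, and NFYA, NFYB and NFYC, the Y box binding proteins, were lower at 24 h by 0.18, 0.18 and 0.12 (adjusted p = 0.006, 0.0087 and 0.016).

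The counts of this paragraph stand beside 25.2% of all genes higher and 24.5% lower at 8 h, and 25.7% and 26.8% at 24 h. The 12 interferon receptor and signalling genes were 4 higher and 7 lower at 8 h, and 3 higher and 1 lower at 24 h. The 24 h count was 5 higher and 1 lower without untreated replicate 1. IFNGR2, a chain of the interferon-gamma receptor, fell by 0.69 and 0.18 (adjusted p = 8.4e-08 and 0.0091). Of 32 interferon-stimulated genes, none of them a member, 31 were tested. At 8 h 25 were lower and 0 higher (median -0.53), and at 24 h 15 were higher and 3 lower (median 0.25). Without untreated replicate 1 these counts were 23 lower and 1 higher, and 17 higher and 2 lower. GBP2, an interferon-inducible GTPase, fell by 1.24 at 8 h and rose by 0.55 at 24 h (adjusted p = 4.1e-06 and 0.0021). Its values without untreated replicate 1 were -0.98 and 0.81 (adjusted p = 1e-08 and 2.1e-08). IFIH1, the RNA sensor MDA5, fell by 0.70 and rose by 0.86 (adjusted p = 6.7e-07 and 1.5e-08). Others did not rise: 13 did not pass at 24 h, and BST2, GBP1 and UBE2L6 were lower. These 3 fell by 0.37, 0.20 and 0.18 at 24 h (adjusted p = 0.00043, 0.00059 and 0.03). UBE2L6 did not pass without untreated replicate 1 (-0.08, adjusted p = 0.16). The median of the interferon-stimulated genes at 8 h lay below the -0.17 of the 9 class I genes, and at 24 h the medians were 0.25 and 0.23.

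**Figure D4:**
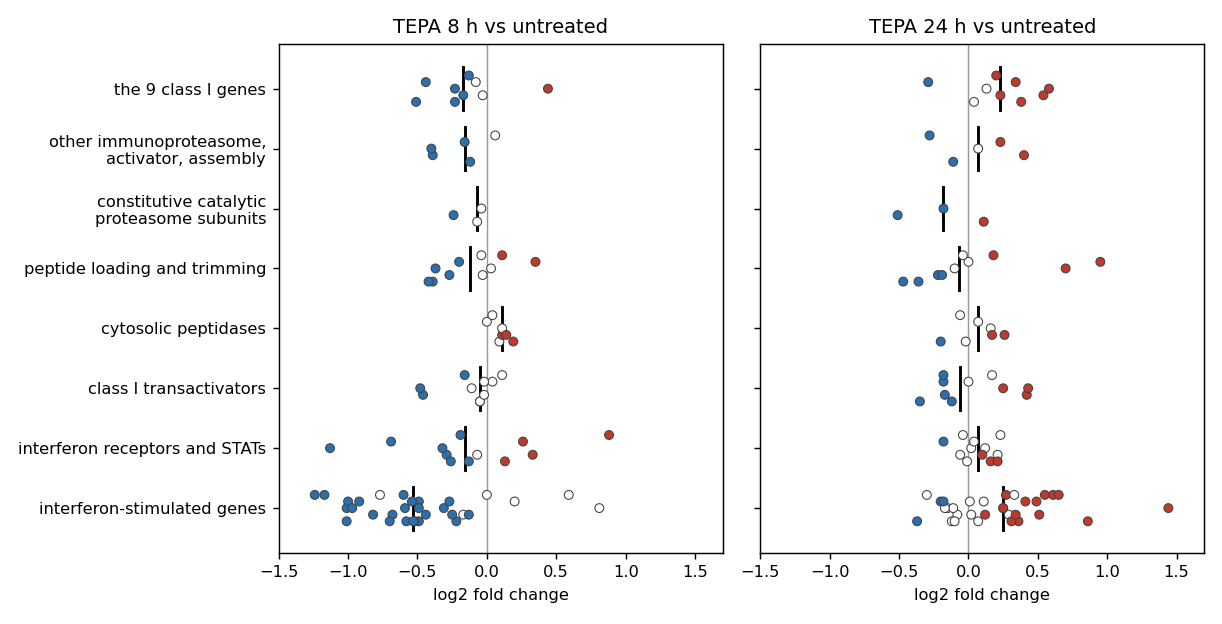
Log2 fold change (x axis) of each tested gene in 8 lists (rows) at 8 h and at 24 h against untreated cells, with red for higher, blue for lower, open for not passing an adjusted p of 0.05, and a black bar at each list's median. At 8 h the interferon-stimulated genes lie mostly below 0 (25 of 31 lower), and at 24 h they spread to both sides of 0 with 15 higher and 3 lower. Among all genes tested, 24.5% were lower at 8 h, and 25.7% were higher and 26.8% lower at 24 h.

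The next counts also stand beside 25.2% of all genes higher and 24.5% lower at 8 h, and 25.7% and 26.8% at 24 h. Of 9 other class I and class I-like heavy chain genes, 7 were tested, with 0 higher and 2 lower at either time, or 1 higher and 2 lower at 24 h without untreated replicate 1. HFE, which regulates iron uptake, fell by 0.52 at 8 h (adjusted p = 2.7e-05) and was at 0.01 at 24 h (adjusted p = 0.95). The NKG2D ligand MICB fell at both times, by 0.33 and 0.25 (adjusted p = 0.00012 and 0.0012), and MICA fell by 0.32 at 24 h (adjusted p = 4e-05). Of 12 class I pseudogenes and antisense genes, 10 were in the table and 4 were tested, with 1 higher and 0 lower at either time. PSMB8-AS1 was at 2.21 ± 0.147 CPM (SD, n = 3) in untreated cells and 3.56 ± 0.338 at 24 h, a rise of 0.69 (adjusted p = 0.00093), and at 8 h was at -0.28 (adjusted p = 0.17). Of 12 class II genes 6 were tested, with 0 higher and 2 lower at 8 h and 1 higher and 2 lower at 24 h. CIITA, the class II transactivator, fell by 0.75 and 0.54 (adjusted p = 0.00071 and 0.0057), while CD74, the invariant chain, fell by 0.25 at 8 h and rose by 0.43 at 24 h (adjusted p = 0.019 and 0.00031). The 8 h and untreated libraries of CD74 overlapped, and without untreated replicate 1 its 8 h value was -0.19 and did not pass (adjusted p = 0.075), which left 1 class II gene lower. Of the 3 PRC2 subunits, which can repress class I genes in tumor cells, EZH2 fell by 0.49 at 24 h (adjusted p = 2.4e-07), and EED and SUZ12 did not pass at either time. SUZ12 did pass at 24 h without untreated replicate 1 (-0.16, adjusted p = 0.029), which made 2 lower.

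Across the 9 libraries, which fall into 3 groups, Pearson's r of log2 CPM between members is given as a description. It was positive in 26 of 36 pairs, with a median of 0.773. TAPBP and PSMB9 were the closest pair (r = 0.986). HLA-C was nearest to TAPBP (0.963), B2M to PSMB9 (0.921), HLA-B to TAP1 (0.898) and PSMB8 to TAP1 (0.954). TAP2 was nearest to TAP1 at only 0.457, and HLA-E was negatively related to all other members, down to -0.817 with TAP2. With the group means removed, which leaves the spread between libraries of the same group, HLA-E was nearest to HLA-B, at 0.866. Among 11911 other tested genes with a mean of at least 100 counts, those near to the members' mean pattern included PDK2 (0.997), DAB2 (0.995), ALDH3B1 (0.994) and IRF2BP2 (0.993). They were chosen for this likeness, so their own changes add nothing to it.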

How the data were processed

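The 9 libraries of MDA-MB-231 cells were sequenced by the study. Per the labels and the study's methods, the authors prepared stranded mRNA libraries, sequenced them as paired 100 bp reads, ran FastQC, used HISAT2 for alignment (build hg38) and counted read pairs over exons by gene name and strand with featureCounts on an Ensembl GRCh38 annotation. The authors deposited raw counts, with no normalization. Reads shared by overlapping genes on a strand are not counted by default, which can lower such genes.

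From the counts, edgeR 4.0.16 in R 4.3.3 was run with filterByExpr (minimum count 10), TMM factors and a quasi-likelihood fit over all 9 libraries. The biological coefficient of variation was 0.0481. Each standard error was taken from the fold change and the F statistic, as |log2 fold change| / √F. P-values were adjusted over the 16556 genes tested, with a threshold of 0.05 and no fold limit, and the steps were tested on simulated data. CPM are TMM-scaled. Alternatives were DESeq2 1.42.0, other scalings and filters, 2-group fits, a replicate block and leaving out each library. The members and gene lists were chosen with earlier results of these data known. The genes named are the members, genes of the lists and the 5 genes most alike by correlation, and some genes that meet this rule are not reported here. Annotation was from GENCODE 44 and start sites from RefSeq.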

Additional observations from a re-analysis of the deposited data

Results flagged for a closer look

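For all 9 genes the difference from untreated cells was not the same at 24 h as at 8 h. Treatment and time in culture cannot be told apart in it. It is the same test as 24 h against 8 h, because both times are set against the same untreated libraries. In that comparison 26% of all genes tested were higher and 28.8% lower. The 24 h value minus the 8 h value, on the log2 scale, was 0.89 for PSMB9, 0.78 for TAPBP and 0.71 for TAP1. It was 0.36 for HLA-C, 0.32 for PSMB8, 0.27 for B2M, 0.26 for HLA-B, 0.14 for TAP2 and -0.21 for HLA-E. Adjusted p-values from edgeR ran from 2e-08 for TAP1 to 0.022 for TAP2. The value of TAP2 was called in 3 of 6 fits without a library of these groups.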

How the results depend on the processing

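Of 405 log2 fold changes of the members under the alternatives, 388 kept their direction and their side of the threshold, 9 were no longer called, 6 became called and 2 changed sign. With upper-quartile factors, PSMB8 at 8 h was no longer called (-0.11, adjusted p = 0.054, edgeR) and HLA-C at 24 h became called (0.16, adjusted p = 0.04), as it did with library totals alone (0.19, adjusted p = 0.02) and with no filter (0.13, adjusted p = 0.013). No scaling moved the median of all genes by more than 0.07. Leaving out 1 library at a time, the values at 8 h ran from -0.10 to 0.06 for HLA-B (changing sign without untreated replicate 1), from -0.14 to 0.00 for HLA-E (called only without untreated replicate 2, adjusted p = 0.041), from -0.22 to -0.12 for TAP1 (called in 4 of 6) and from -0.16 to -0.09 for PSMB8 (called in 3 of 6). At 24 h they ran from 0.06 to 0.22 for HLA-C (called in 2 of 6, without untreated replicate 1 or TEPA 24 h replicate 3), from -0.01 to 0.08 for B2M (changing sign without untreated replicate 2), and from 0.20 to 0.32 for the median of the 9 genes. For 24 h against 8 h, TAP2 ran from 0.12 to 0.16 (called in 3 of 6). The causes were not tested.

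The replicate numbers in the labels did not pair the libraries: deviations of same-numbered libraries correlated at -0.0801 to 0.0383. With the replicate number as a block no call of a member changed (TAP1 0.54 and HLA-E -0.29 at 24 h), and 3958 of all genes were higher and 3821 lower at 8 h.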
